A study of Mus musculus with 20 samples.

Results

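Thapsigargin-only ATF4 peaks inside long genes are regions that carried ATF4 in stressed C2C12 cells, had no ATF4 peak in solvent-treated cells, and lay in the body of a protein-coding gene of at least 100 kb, away from gene ends. They were chosen as thapsigargin peaks without 1 bp of overlap with a DMSO peak, with the centre more than 1 kb from every end of a protein-coding gene and inside such a gene, taking the longest where several overlapped. The rule found 1421 of the 8619 thapsigargin peaks (16.5%, 95% Wilson interval 15.7% to 17.3%), spread over 848 host genes. C2C12 is an established line of mouse myoblasts, here of wild-type genotype in both groups. The cells received DMSO, the solvent, or 100 nM thapsigargin for 6 h, and ATF4 was mapped by CUT&Tag, in which an antibody guides a transposase that tags the DNA next to the bound protein. The labels list 2 ATF4 replicates per treatment and do not say whether they came from separate cultures. The authors' files hold 1 peak list per treatment with 803 peaks in DMSO and 8619 in thapsigargin, given as chromosome, start and end without height or score.

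Thapsigargin inhibits SERCA, which pumps calcium into the endoplasmic reticulum (ER), and the ER stress that follows activates the kinase PERK, which phosphorylates the translation factor eIF2α and favours the making of ATF4. ATF4 is a bZIP transcription factor that binds DNA as a dimer, often with a C/EBP partner, at a composite C/EBP-ATF element. Its best known sites lie at the promoters of genes of amino acid supply and redox balance, and sites inside long genes may be enhancers or alternative promoters.

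Presence in thapsigargin and absence in DMSO chose these peaks, so neither is a finding. Of all thapsigargin peaks 90.8% had no DMSO overlap. With 1 list per treatment there is no replicate error, the read depth is unknown, and no difference below was tested. Intervals of shares are 95% Wilson intervals, those of rates are exact Poisson intervals and those of medians are order-statistic intervals, all for counting error only.

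Sequence could be read only where a peak covered a RefSeq transcription start. A start window here is the stretch from 250 bases before to 50 bases after a RefSeq start, and 61 of the 1421 peaks held at least 1 whole window. Among thapsigargin-only peaks inside shorter genes, 147 of 1227 did. A window was at least touched by 5.35% of the set, 18.3% of the peaks inside shorter genes and 4.86% of the peaks of both conditions inside long genes. The RefSeq promoter table behind these windows covers 1864 of the 2427 long genes, and the hosts of 1094 of the 1421 peaks. Its cover of shorter genes was not counted, and a role of cover in these shares was not tested. In 47 of the 61 the window belonged to the host gene, so the peak lay at a start inside the host's span, here called an internal start. In 28 of the 47 the centre was more than 10 kb from every gene end, while others lay close to one, as at Sgms2 (1.17 kb) and Camk2d (1.42 kb). A span can take in predicted transcripts, so an internal start may be a gene's main start. Genes at internal starts were named after their values had been seen. Slc7a11, the cystine transporter subunit xCT and a textbook ATF4 target, had its 1684 bp peak at chr3:50442817-50444500, with the RefSeq start 45 bp from the peak centre. The gene table gives Slc7a11 a span of 134 kb (chromosome 3, 50364936 to 50499087) over 5 transcripts, of which 4 are predicted models, and the RefSeq start lies inside that span, 55.4 kb from the nearest gene end to the peak centre. Its window, printed whole because it held the composite letters in both orientations, is shown along the gene's strand with the matches in capitals (RefSeq, GRCm38.p6, chr3:50443564-50443863, minus strand).
Slc7a11: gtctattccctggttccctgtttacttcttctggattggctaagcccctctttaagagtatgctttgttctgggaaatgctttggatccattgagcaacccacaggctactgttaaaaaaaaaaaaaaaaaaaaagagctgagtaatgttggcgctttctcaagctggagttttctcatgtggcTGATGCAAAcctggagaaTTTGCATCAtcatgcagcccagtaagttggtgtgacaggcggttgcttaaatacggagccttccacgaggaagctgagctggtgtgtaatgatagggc

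The 2 matches at Slc7a11 face each other across 9 bases, and they lay 17 bp and 1 bp from the centre of the peak. The letters searched for the composite element were TGATGNAAN on both strands, where N is any base. They occurred in a whole start window of 8 of the 61 peaks (13.1%, interval 6.80% to 23.8%). Among all 32851 RefSeq windows 3.95% held them. In thapsigargin-only peaks inside shorter genes, 7 of the 147 peaks with a whole window did (4.76%, interval 2.33% to 9.50%), and the intervals of both sets overlap. Of the 6 peaks of both conditions in long genes with a whole window, 1 held them. The 61 peaks held 70 windows, so a few had more than 1 window in which to match, whereas the background counts single windows. A match is a stretch of letters, not a shown binding site.

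The other 7 peaks with these letters are shown by the match in capitals and up to 25 bases on each side, because they give the sequence around each match. In 6 of the 7 the window is the host's own, and the exception is Bach2os, a long noncoding RNA (lncRNA) inside Bach2. R3hdm1 lies at chr1:128141780-128141838 (plus strand), Usp6nl at chr2:6352707-6352765 (plus), Bach2os at chr4:32571615-32571673 (minus), Eps15 at chr4:109342904-109342962 (plus), Creb5 at chr6:53573264-53573322 (plus), Gas2 at chr7:51878983-51879016 (plus, where the window ends at the match) and Synj2 at chr17:5975455-5975513 (plus).
R3hdm1: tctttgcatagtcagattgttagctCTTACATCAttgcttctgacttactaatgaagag
Usp6nl: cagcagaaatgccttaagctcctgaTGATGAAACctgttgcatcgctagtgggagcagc
Bach2os: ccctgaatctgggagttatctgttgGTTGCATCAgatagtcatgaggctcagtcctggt
Eps15: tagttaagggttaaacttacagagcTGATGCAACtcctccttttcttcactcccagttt
Creb5: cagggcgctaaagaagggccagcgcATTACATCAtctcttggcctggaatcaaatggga
Gas2: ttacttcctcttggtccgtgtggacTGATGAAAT
Synj2: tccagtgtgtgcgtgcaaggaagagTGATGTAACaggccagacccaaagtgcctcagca

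In 4 of the 8 peaks, those at Slc7a11, Creb5, Usp6nl and Eps15, the nearest match lay within 50 bp of the peak centre. Creb5, itself a bZIP factor gene, had the match 23 bp from the centre of a 604 bp peak, 127 kb from the nearest gene end. At Usp6nl, a gene for a Rab GTPase-activating protein, the distance was 30.5 bp, and at Eps15, which encodes an endocytic adaptor, 46.5 bp. It was 179 bp at R3hdm1, 298 bp at Gas2 and 342 bp at Synj2, a gene for a phosphoinositide phosphatase. At Bach2os the match lay 894 bp from the centre of the widest peak of the set, of 2767 bp.

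Other motifs occurred in the same 61 peaks as follows. The full cAMP response element TGACGTCA was found in 2 peaks (3.28%), at Ap2b1 and Atad2b, against 1.79% of all windows. The AP-1 letters TGACTCA or TGAGTCA were found in 6 (9.84%, interval 4.59% to 19.8%), against 5.2% of all windows. The C/EBP palindrome TTGCGCAA was in none of the 61, which allows up to 5.92%, and 0.183% of all windows held it. The E-box CAGCTG of myogenic factors was in 10 (16.4%) against 16.3% of all windows, the TEAD letters GGAATG in 12 (19.7%) against 14.7%, and the RUNX letters TGTGGTT in 5 (8.20%) against 5.27%. Each of these background shares lies inside the interval of the 61 peaks, whereas that of the composite letters lies below it. The background counts single windows, though, and the composite interval of the 61 overlaps that of peaks inside shorter genes. No difference in motifs was tested. All motifs were read on both strands, and 1 window could hold several.

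Internal starts of well-studied regulators were among the 47. Runx1, a Runt-family transcription factor gene, had a 1879 bp peak at an internal start 96.2 kb from the nearest gene end, and Rbpj, the DNA-binding factor of Notch signalling, had one of 2244 bp at 34.3 kb. Sgk1, a kinase gene induced by many stresses, had a 1002 bp peak with its centre 69 bp from a RefSeq start. Hk1, which encodes hexokinase, had a 1555 bp peak that also held the window of the antisense lncRNA Hk1os. At internal starts of Dst, Hdac4, Lifr and Ltbp1 the peaks were 1029, 702, 719 and 696 bp wide. The median distance from the host's start to the peak centre was 160 bp over the 47, a value limited by the choice of peaks that hold the whole window. The median width was 1067 bp for peaks that held a window and 1003 bp for all others in the set.

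Noncoding genes gave the remaining starts. Windows of 18 lncRNA genes lay whole inside a peak, and 39 peaks (2.74%) were centred within 1 kb of an lncRNA end. Kcnq1ot1, the imprinted antisense RNA within Kcnq1, had its start 19.5 bp from the centre of a 949 bp peak. Dnm3os, the transcript antisense to Dnm3 that carries microRNAs, had its start 126 bp from the centre of a 1044 bp peak at chr1:162217228-162218271. The hairpin of Mir199a-2 lies in that same peak, and its mature arms are shown with the seed (bases 2 to 8) in capitals, at chr1:162217844-162217866 and chr1:162217883-162217904 on the plus strand (RefSeq, GRCm38.p6).
mmu-miR-199a-5p: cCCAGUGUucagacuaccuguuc
mmu-miR-199a-3p: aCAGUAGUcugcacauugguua

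Tex14, a gene of germ cells, stood out for another class of RNA genes. It held 5 peaks within 40.2 kb, 1056 to 1891 bp wide, and all 5 were centred within 1 kb of a gene that the table types as small nuclear RNA. The genes were Rnu1a1, Gm22068, Gm23137, Rnu3b1, Rnu3b3 and Rnu3b4, named after their values had been seen. No other peak of the set had such a gene within 1 kb. These RNA genes exist in near-identical copies, and the authors' handling of reads that map to several copies is not given in the sources used here, so the positions of these peaks are uncertain.

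The host genes themselves differed widely in how many peaks they held. Most hosts (514 of 848, 60.6%) held 1, and 334 (39.4%, interval 36.2% to 42.7%) held 2 or more. The latter accounted for 907 of the 1421 peaks. Only 25 hosts held 5 or more. Pde4d, which encodes a phosphodiesterase that breaks down cAMP, held 10 in its 1302 kb, Dlgap1, a gene for a postsynaptic scaffold, 9, and Dst, which encodes the cytoskeletal linker dystonin, 8. Next came 5 hosts with 6 each, the bZIP repressor gene Bach2, the calcium/calmodulin kinase gene Camk2d, the receptor phosphatase gene Ptprg, the forkhead factor gene Foxp1 and the synapsin gene Syn3. Rasal2, a Ras GTPase-activating protein gene, and Samd4 were among the 17 hosts with 5.

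**Figure D1:**
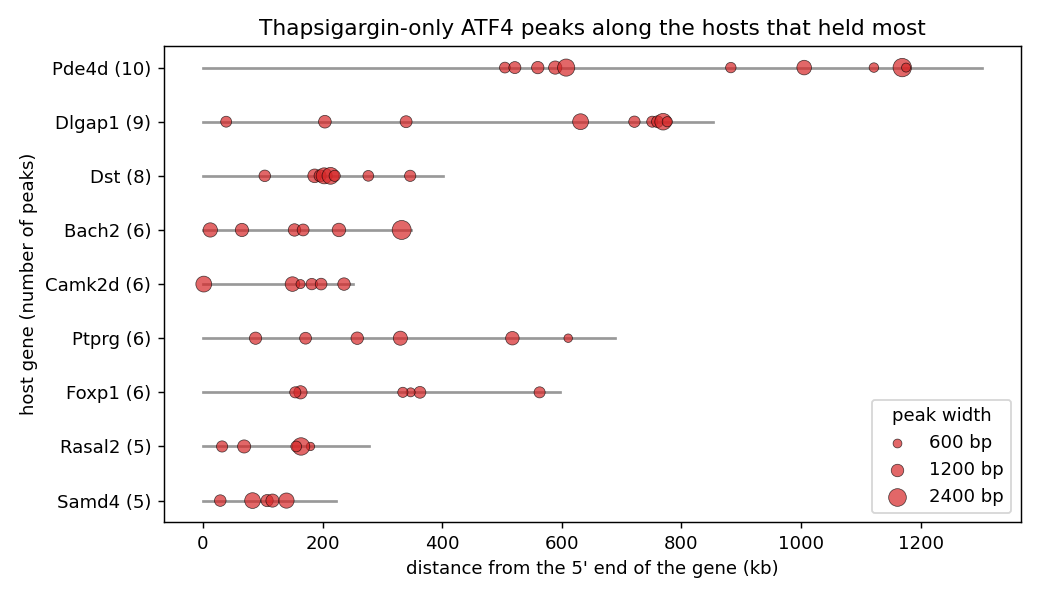
Thapsigargin-only ATF4 peaks along 9 of the 10 host genes with most peaks, as distance from the gene's 5′ end in kb. Grey lines span each gene, circle area follows peak width, and Syn3 is left out because its strand was not given in the promoter table; Pde4d has no peak in its first 500 kb, and 5 of the 8 Dst peaks lie side by side.

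Within these hosts the peaks were not evenly spread. In Pde4d all 10 lay between 505 and 1176 kb from the 5′ end, and the widest, 2598 bp at 1169 kb, had a 626 bp neighbour 4.77 kb away. In Dst 5 peaks formed a run of 34.8 kb at chr1:34093938-34128692, with widths from 960 to 2176 bp. In Dlgap1 4 peaks formed a run of 26.1 kb at chr17:70719796-70745886 towards the 3′ end. In Ptprg, by contrast, the closest neighbours were 70.8 kb apart, and the 6 peaks lay from 88 to 611 kb from the 5′ end. In Bach2 the smallest gap was 13.2 kb, with peaks from 12.3 to 332 kb. Camk2d had its widest peak, of 1931 bp, 1.42 kb from its 5′ end at a RefSeq start, and the other 5 between 150 and 236 kb.

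Over all 1421 peaks, 60 had another thapsigargin peak of the same host within 5 kb, edge to edge, and 14 within 1 kb. Within the longer distance customarily used to stitch peaks into super-enhancers, 236 had one (16.6%, interval 14.8% to 18.6%). That last share was 15.1% for thapsigargin-only peaks inside shorter genes and 17.4% for peaks of both conditions inside long genes, both inside that interval. Linking peaks of the set within the stitching distance gave 100 runs with 210 peaks in 95 hosts, of which 6 runs had 3 peaks or more. Besides Dst and Dlgap1 these were in Hecw2, a ubiquitin ligase gene, with 4 peaks in 18.8 kb, in Map3k20, a stress kinase gene, with 3 in 19.6 kb, in Myo10, an unconventional myosin gene, with 3 in 13.6 kb, and in Ppfibp1 with 3 in 22.0 kb.

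A peak inside a host was not always closest to that host's own ends. For 120 peaks (8.44%) the nearest protein-coding gene end belonged to another gene, and for 65 (4.57%) to a gene lying inside the host. Of the 6 Syn3 peaks, 4 were nearest to Timp3, the gene of a metalloproteinase inhibitor that lies within Syn3, at 10.0 to 124 kb. Of the peaks inside Tg, the thyroglobulin gene, 4 were nearest to Sla, an adaptor gene, at 14.8 to 47.8 kb. The host name is therefore a position, and the lists do not say which gene a peak acts on.

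The widest peak of the set was that in Bach2, of 2767 bp (chr4:32569368-32572134), 15.4 kb from the nearest gene end. Next were Pde4d (2598 bp), Me3, a mitochondrial malic enzyme gene (2486 bp), Samd12 (2473 bp), Lmo7 (2438 bp), Rasal2 (2342 bp) and Lrrfip1 (2298 bp). A further Pde4d peak had 2261 bp, Rbpj 2244 bp and Ttc28 2240 bp. Of these 10, the Rbpj peak covered a RefSeq start of its host, and Samd12 had no start in the promoter table. The median width was 1006 bp (interval 982 to 1031, quartiles 800 and 1283 bp), against 1029 bp (1005 to 1054) for thapsigargin-only peaks inside shorter genes and 1381 bp (1294 to 1449) for peaks of both conditions inside long genes. Width is not a measure of occupancy, and it grows with read depth.

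Among long genes the number of peaks per unit of sequence fell as gene length rose, with no steady fall among shorter genes. Per Mb of gene body more than 1 kb from every gene end, there were 3.16 thapsigargin-only peaks (interval 2.91 to 3.42) in genes of 100 to 200 kb, 2.79 (2.54 to 3.05) in genes of 200 to 400 kb, 1.92 (1.69 to 2.17) in genes of 400 to 800 kb and 0.777 (0.622 to 0.958) in genes of 800 kb or more. Genes of 50 to 100 kb had 3.09, those of 25 to 50 kb 3.42 and shorter ones 3.24. The share of genes with at least 1 such peak was 30.3% at 100 to 200 kb, 40.6% at 200 to 400 kb, 45.7% at 400 to 800 kb and 38.8% at 800 kb or more. Pde4d and Dlgap1 together held 19 of the 87 peaks in the 98 genes of 800 kb or more. Peaks of both conditions were sparser and fell in the same order. They went from 0.348 per Mb (66 peaks) at 100 to 200 kb to 0.0179 at 800 kb or more, which rests on 2 peaks. The median width changed little, from 1010 bp in the shortest class of long genes to 984 bp in the longest.

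**Figure D2:**
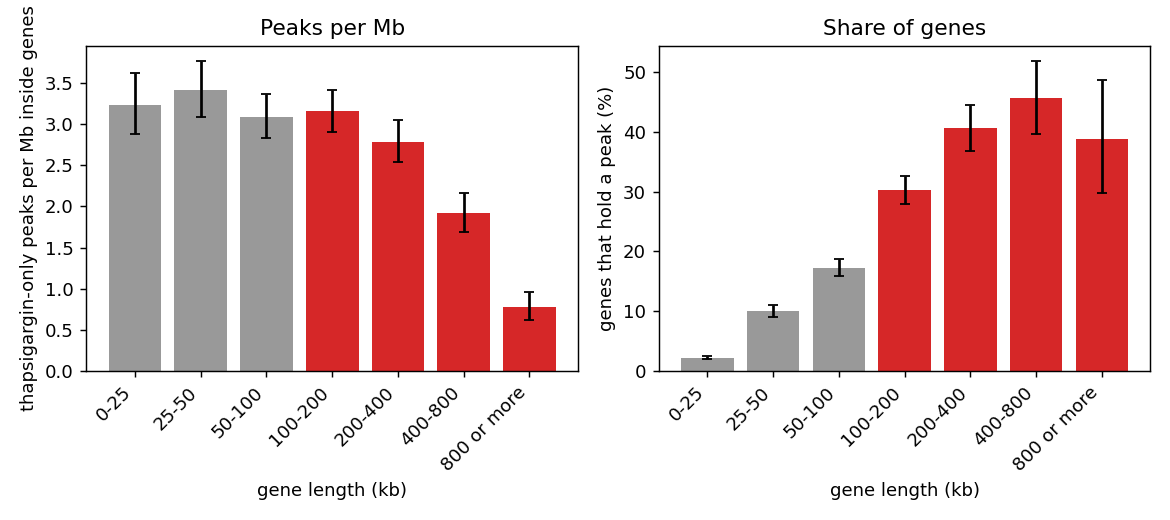
Thapsigargin-only ATF4 peaks per Mb of gene body (left, with exact 95% Poisson intervals) and the percentage of genes that hold such a peak (right, with 95% Wilson intervals), by gene length in kb. Red bars are the long genes of this set and grey bars shorter genes; the rate per Mb falls from 3.16 to 0.777 across the red bars.

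Along the host the peaks were nearly level. The strand was known for hosts of 1094 peaks, and 554 of these (50.6%, interval 47.7% to 53.6%) lay nearer the 5′ end than the 3′ end. Split into 10 equal parts of the gene, the parts held 94 to 123 peaks each. Close to the ends there was a difference in number: 36 peaks lay 1 to 5 kb from the 5′ end and 19 lay 1 to 5 kb from the 3′ end. Of the 36, 21 overlapped a RefSeq start window of the host, and none of the 19 did. Between 5 and 10 kb the numbers were 20 and 21, and between 10 and 20 kb 58 and 54. The median distance from the nearest protein-coding gene end was 51.0 kb.

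**Figure D3:**
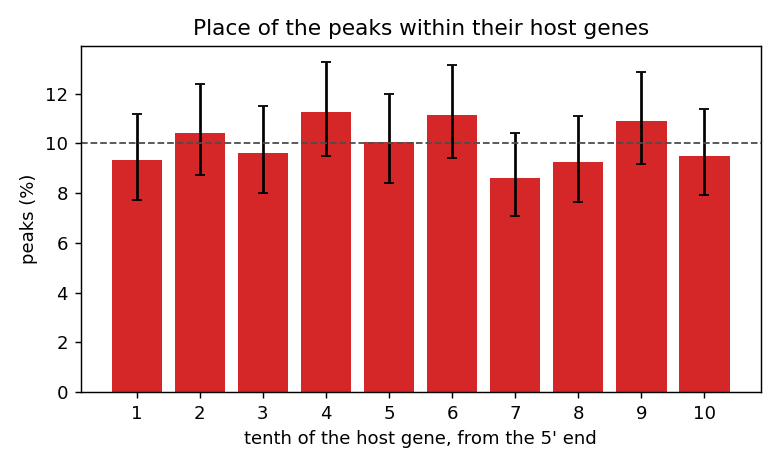
Percentage of the 1094 thapsigargin-only ATF4 peaks in hosts of known strand that fell in each of 10 equal parts of the host, numbered from the 5′ end. Error bars are 95% Wilson intervals and the dashed line marks an even spread; the parts hold 8.59% to 11.2% of the peaks.

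The hosts were also compared with their own ends. Of the 848 hosts, 141 (16.6%, interval 14.3% to 19.3%) had a thapsigargin peak centred within 1 kb of an end of their own, against 190 of the other 1579 long genes (12.03%, interval 10.5% to 13.7%) and 13.6% of all long genes. A peak of both conditions inside the gene was present in 88 hosts (10.4%) and in 43 of the other long genes (2.72%), and in 5.4% of all long genes. In DMSO 5 of the 848 hosts had a peak at an end (0.590%, interval 0.252% to 1.37%), as had 5 of the other 1579 long genes (0.317%, interval 0.135% to 0.739%) and 0.412% of all long genes, and the intervals overlap. The 5 hosts were Wdr25, Tanc2, Ddr2, Myom1 and Ttc39b, named after their values had been seen. Hosts had a median length of 195 kb and the other long genes 162 kb, and longer genes have more room for peaks inside. Peaks at ends were counted within 1 kb of each end at any gene length. The part of length in the difference in peaks of both conditions inside was not tested.

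The hosts were grouped by gene lists, 10 of which are described, and only members of 100 kb or more were counted. Since 34.9% of all 2427 long genes held a peak of the set (848 genes) and this same presence chose the hosts, the shares are a description. The intervals of the receptor, stress, skeletal muscle and other cell type lists contain 34.9%, and those of the other lists described do not. The share of hosts also rose with length, from 30.3% at 100 to 200 kb to 45.7% at 400 to 800 kb. Of the lists described, only the chromatin list had a median length (163 kb) below the 172 kb of all long genes. Length was not accounted for in these shares. Of the long genes of the actin cytoskeleton and focal adhesions, which anchor cells to the matrix, 32 of 54 were hosts, with 72 peaks. Besides Dst these were led by Nedd9, an adaptor of focal adhesions (5 peaks), Ptk2, the focal adhesion kinase (4), the actin-binding Ablim1 (4) and Lpp (3, the widest 1720 bp). Of the matrix and cell adhesion molecules 25 of 51 were hosts, with 4 peaks each in Ltbp1, a latent TGF-β binding protein gene, and Thsd4, and 3 each in the integrin gene Itgb6, Col15a1 and Adamts6.

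Regulators of transcription were hosts in 41 of 76 cases. Bach2 and Foxp1 held 6 peaks each, the zinc finger gene Zbtb20 held 5, and Hivep3 and Runx1 held 3. Of the chromatin regulators and cofactors 25 of 47 were hosts, led by the corepressor gene Rere (5), then Arid5b and the histone deacetylase gene Hdac4 (4 each), Aff1 and Mecom (3 each). The long genes of calcium handling and ion channels had a median length of 321 kb, against 172 kb for all long genes. Of these 42 genes 25 were hosts, and a relation to the drug's action on calcium was not tested. After Camk2d these were led by the phospholipase gene Plcb4 (4), Camk1d, the calcium channel gene Cacna1a and the IP3 receptor gene Itpr1 (3 each). Of receptors and kinase signalling genes 35 of 79 were hosts, with Nrg1, the neuregulin gene, and Eps8 (3 each) after Pde4d, Ptprg and Rasal2.

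The list of stress response, mTOR, autophagy and amino acid metabolism had 28 long genes, and 13 of them were hosts with 19 peaks. That share of 46.4% had an interval of 29.5% to 64.2%, which contains the 34.9% of all long genes. Rptor, the raptor subunit of mTORC1, held 3 (the widest 1347 bp), Deptor, an inhibitor of mTOR, 2, the Rab GTPase-activating protein gene Tbc1d1 2, and the ubiquitin ligase genes Nedd4l and Wwp2 3 and 1. Slc7a11 with its single peak belongs here too. Of the skeletal muscle list 15 of 29 were hosts, with 4 peaks each in Utrn, the dystrophin relative utrophin, the splicing regulator gene Rbm20 and Celf2, and 3 in Mbnl1. The neuronal genes, picked for neurons and very long, had a median length of 858 kb. Of these, 19 of 88 were hosts with 29 peaks, or 0.373 per Mb of gene. The actin list had 4.90 per Mb, but its genes had a median length of 208 kb. Over all genes the rate per Mb of gene body was 2.79 at 200 to 400 kb and 0.777 at 800 kb or more. In the neuronal list Dlg2, Gria1 and Cdh18 held 3 each and Ank3 and Csmd3 2 each. The synaptic genes Dlgap1 (9 peaks) and Syn3 (6) are not in that list, so its counts leave them out. Of the genes typical of other cell types 14 of 36 were hosts, Mecom and Cubn with 3, Skap1 with 2 and Abca4 and Abca13 with 1. This last list does not include Tex14 (5 peaks) or Tg (4). Lists can share genes, and 15 long genes were in 2 or more of the 11 lists, Mecom among them.

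**Figure D4:**
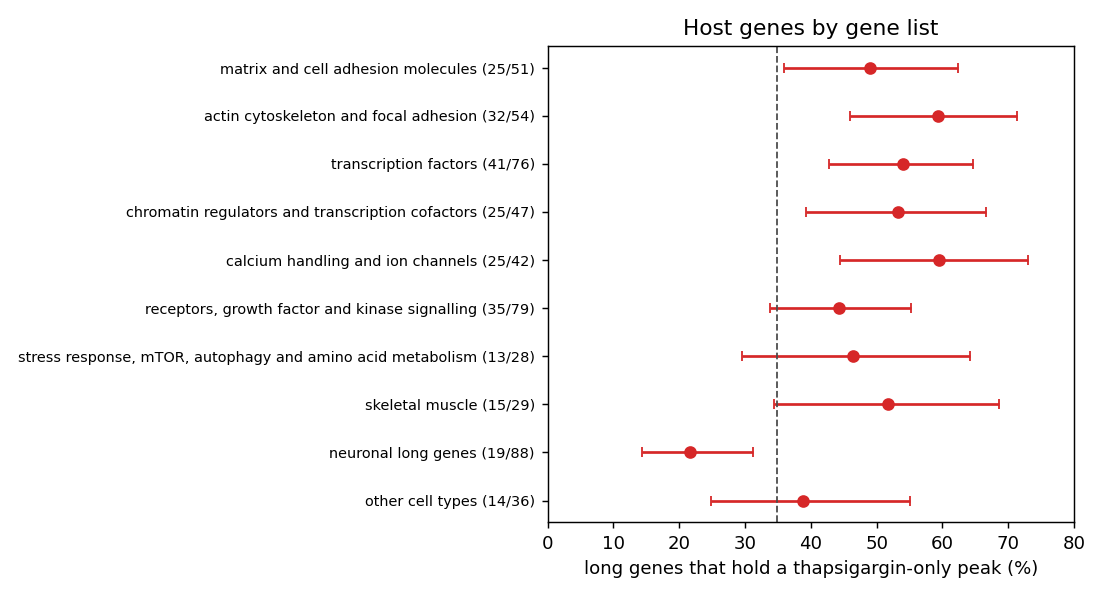
Percentage of the long genes of each of 10 lists that hold a thapsigargin-only ATF4 peak, with 95% Wilson intervals and, in brackets, hosts over long genes. The dashed line is the 34.9% of all 2427 long genes, not matched for gene length. The neuronal list, which does not include Dlgap1 or Syn3, is lowest with 19 of 88. The actin list holds 32 of 54.

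At the edges of the rule, the shortest hosts counted were Smarcal1 and Map2k4, both 100.1 kb long with peaks of 1050 and 857 bp. The longest genes just outside were Vmp1 (99.98 kb, a peak of 1784 bp) and Wipf1 (99.88 kb, 1129 bp). The peaks nearest to a gene end that still counted were in Kctd16 (1040 bp away) and Pex14 (1054 bp), and those just too near were in Man2a1 (957 bp) and Mcu (947 bp).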

How the data were processed

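ATF4 CUT&Tag peaks of C2C12 cells were analysed from 2 deposited lists, which give chromosome, start and end only, as peak positions with no score. Per the submitters' processing notes, the tools were MACS2 2.2.7.1, Trim Galore 0.6.10 and Bowtie2, with mm10 as the genome and no parameters. Peak threshold, control and replicate handling were not given in the sources used here. Groups came from the sample titles, and the 8 groups of other antibodies did not enter.

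Gene positions were read from a RefSeq table (GRCm38.p6, the assembly behind mm10), of which 21631 protein-coding genes on the autosomes and X entered. It gives gene start and end and no exons. Strand and start windows (300 bases) came from a RefSeq promoter table that covers 1864 of 2427 long genes. Overlapping windows held the same letters in 3680 of 3680 pairs. The planned motif search in the peaks themselves could not be made without a genome sequence, and windows wholly inside peaks were searched in its place, a choice made after the files were seen.

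Members and gene lists were chosen with earlier results of these data known. By rule the hosts of the 10 widest members, the 10 hosts with most members, up to 5 hosts per list, and 2 peaks on each side of each threshold were named. Of 11 gene lists, 1 list and 1 host of another are not reported here. Genes at internal starts, of runs, noncoding genes and nested genes were named after their values had been seen. No test was made, as each condition has 1 list. Classification was tested on simulated data, where 200 of 200 planted members were called, and 0 of 200 in each other class (shorter genes, gene ends, over a DMSO peak). Work was done in Python 3.11.15 with pandas 2.3.3, numpy 2.4.6, matplotlib 3.10.9 and scipy 1.17.1. Printed coordinates count from 1.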

Additional observations from a re-analysis of the deposited data

How the results depend on the processing

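No paired analysis was possible because there is 1 list per treatment, with no list per replicate, and for the same reason no replicate could be left out. The alternatives were hosts of at least 200 kb, more than 5 kb from gene ends, no DMSO peak within 1 kb, the 4310 wider peaks of the thapsigargin list, and merging peaks within 500 bp. With hosts of at least 200 kb there were 822 members in 413 hosts, which were 41.7% of the 990 genes of at least that length. Of these hosts 51.6% had 2 or more members, and there were 1.97 members per Mb. With the wider peaks there were 662 members (median width 1319 bp) in 484 hosts, 19.9% of long genes were hosts, 25.6% of hosts had 2 or more members, 1.09 members fell per Mb, and 10.3% of members had another peak within the stitching distance. Both settings keep fewer peaks by construction. With the wider peaks the share of hosts in each of the 10 gene lists described also fell below its interval, and the 7 motif shares stayed within theirs. The share nearer the 5′ end stayed within its interval in every alternative, and the other 3 alternatives kept all 8 values within their limits. Motifs in whole peaks were not searched. Depth is unknown, so a peak missing from the DMSO list may lie under its threshold.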
